A study of Arabidopsis thaliana with 6 samples.

Results

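The NAC family was examined for binding by LEAFY (LFY) in 15-day-old whole seedlings of Arabidopsis thaliana. Members were the protein-coding genes whose symbol or a synonym is NAC or ANAC followed by a number, or CUC1, CUC2 or CUC3, which gave 99 genes of 27444 on the 5 nuclear chromosomes. Chromatin immunoprecipitation sequencing (ChIP-Seq) with a rabbit serum against the carboxy-terminal part of LFY had been performed on p35S:LFY (strain CA26-15), p35S:LFYTERE (strain CA29-17) and wild-type Col-0, with 2 biological replicates of each genotype. In both transgenes the 35S promoter, active in nearly all tissues, expresses the LFY cDNA, and each transgenic genotype is represented by a single line. In LFYTERE the SAM domain, through which LFY oligomerizes, is altered by T75E and R112E. Wild-type Col-0, which has no transgene, was the control for both. Complete seedlings with roots were used, so binding in single tissues cannot be told apart, and no expression values were analysed here against which the tissue could be checked.

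NAC proteins are plant-specific transcription factors that share an amino-terminal NAC domain for DNA binding and dimerization, followed by a variable regulatory part. The family is named after petunia NAM and Arabidopsis ATAF and CUC genes. Its CUC members separate organs from each other and help to form the shoot meristem, and other members act in xylem and fibre wall formation, in the root cap, in leaf senescence and in responses to drought, pathogens and DNA damage. LFY is the master regulator of flower formation, and constitutive LFY triggers flowers at ectopic positions.

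In p35S:LFY, 25 of the 99 NAC genes (25.3%) had a bound region with its midpoint inside the gene or within 3 kb, against 13.5% of all protein-coding genes. If each member had been bound as often as all genes of like length, the count would have been 13.9. These 25 genes held 26 regions of the 1954 in the list, because NAC050 and NAC052 shared 1 region, NAC044 and NAC045 had 2 regions each, and the others had 1. In p35S:LFYTERE, 1 NAC gene of 99 (1.01%), NAC080, had 1 of the 176 bound regions, against 1.49% of all protein-coding genes and a like-length count of 1.55. The family's share was thus above the background in the first genotype and near it in the second. No test of either share was made over genes, because the family was chosen with earlier results of these data known. None was possible over samples, because the lists hold 1 value per region over both replicates and so no spread between replicates.

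Regions lay inside NAC genes more often than the background. A midpoint fell inside 12 of the 99 members (12.1%), against 3.02% of all protein-coding genes and a like-length count of 3.21. At a window of 1 kb, 21 members were bound (like-length count 7.95). At 10 kb the numbers were 44 and 32.2. NAC genes had more gene-free bases within 3 kb on either side (median 3523) than all genes did (2541.5). With the background taken from genes alike in both length and gene-free bases, the count was 15.1 in place of 13.9.

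**Figure D1:**
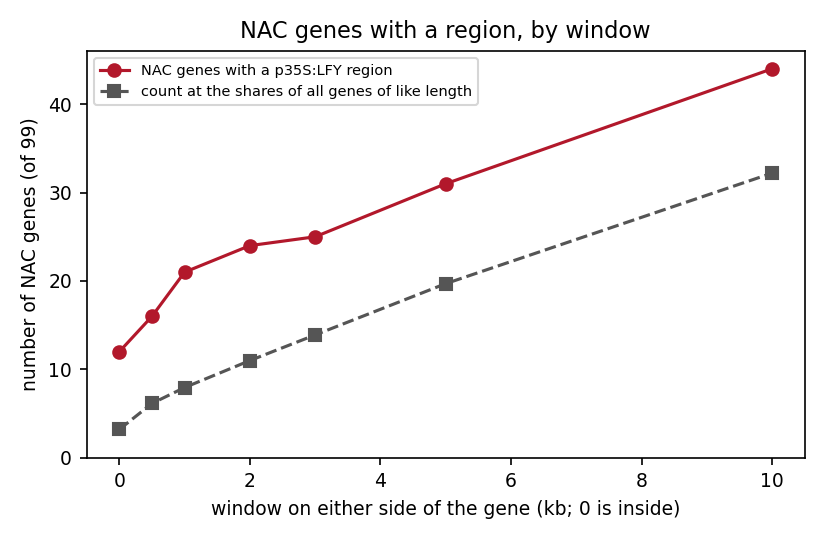
Number of NAC genes of 99 (y axis) with a p35S:LFY region whose midpoint is within the window on the x axis, in kb on either side of the gene, and the number that the shares of all protein-coding genes of like length would give. The family's line runs from 12 genes at a window of 0 to 44 at 10 kb, above the other line at each of the 7 windows.

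Each region has a rank in its list, with 1 the best, and a coverage fold reduction (CFR), the authors' linear ratio of normalized p35S:LFY coverage to p35S:LFYTERE coverage. A CFR of 1 means equal coverage by both proteins. The 26 NAC regions showed a CFR of 7.41 in the median, beside 7.40 for all 1954 regions. The 95% interval of the NAC median, from binomial order statistics, was 6.10 to 13.7 and reflects the number of regions only. Their quartiles were 5.74 and 14.7, beside 4.82 and 13.0 and they ran from 2.78 to 40.4, where the lowest CFR of the whole list is 1.32. Regions of this list were chosen for their p35S:LFY coverage, so a CFR above 1 is a property of all of them and not of the family. A CFR above 10 was found in 10 of 26 (38.5%), against 35.3% of all regions, and a CFR above 20 in 6 of 26 (23.1%), against 13.5%. In rank, the family was spread over the list, with 7 regions up to rank 489, 8 more up to rank 977, 8 up to rank 1465 and 3 after it, and a median rank of 877.5 against 977.5. The 15 NAC regions up to rank 977 had a median CFR of 7.68 (all regions 8.07), and the other 11 one of 7.03 (all regions 6.99). In both rank and CFR the middle of the family thus lay close to the middle of the list.

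**Figure D2:**
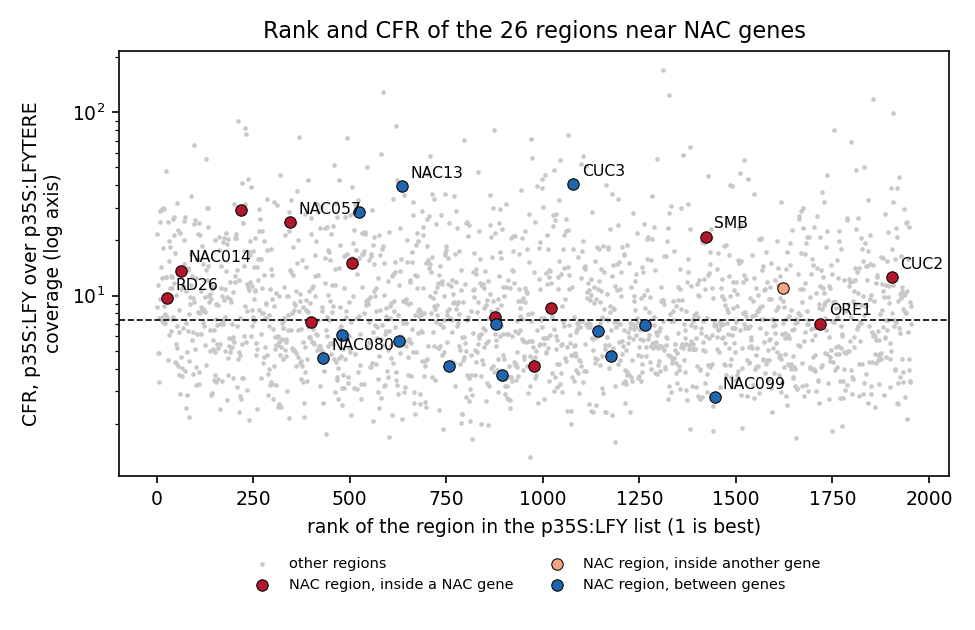
Rank (x axis, 1 is best) and CFR (y axis, log axis, no unit) of the 1954 p35S:LFY regions in grey and of the 26 NAC regions in colour by place, with the median CFR of all regions as a dashed line. NAC regions are found from rank 26 (RD26) to rank 1904 (CUC2), and CUC3 and NAC13 are the highest at 40.4 and 39.5. The few regions of the list with a CFR beyond the axis, none of them near a NAC gene, are not drawn.

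Of the 26 midpoints, 12 lay inside a NAC gene, 1 inside another gene and 13 between genes. Of all regions, 56.3% fell between genes. The 12 regions inside NAC genes had a median CFR of 11.2 (4.11 to 29.2) and the 13 between genes one of 6.10 (2.78 to 40.4), with ranges that overlap almost fully. Over the whole list the order of the medians was the opposite, 7.01 inside genes and 8.04 between them. The NAC difference was not tested. No NAC region had another p35S:LFY region within 2 kb of its midpoint, whereas 18.8% of all regions did. The closest were the 2 regions of NAC044, 2454 bp apart.

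The members with a region are described by role. The role lists are short, need not hold every member with a role, and were chosen with earlier results of these data known. Their counts are therefore given beside the shares of all genes (13.5%) and of the family (25.3%), and nothing particular to a list is read from them.

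The CUC genes set the boundaries between organs, and their loss fuses cotyledons. CUC2 (AT5G53950) held a region inside the gene (TAIR10 chromosome 5, 21902649 to 21902838) with rank 1904 and a CFR of 12.6. It is 190 bp wide, the narrowest of the family, where the median NAC region had 380.5 bp. CUC3 (AT1G76420) had a region 1040 bp from the gene (chromosome 1, 28674904 to 28675267) with rank 1079 and a CFR of 40.4. That is the highest CFR of the family, above 97.2% of the list, and no other protein-coding gene is within 3 kb of it. CUC1 had no region within 3 kb. Both CUC regions were thus ranked after 977 and above the median in CFR. Neither was called in p35S:LFYTERE, which held for most of the list. Only 8.85% of all p35S:LFY regions, and 1.19% of those with a CFR of 5 or more, overlapped a p35S:LFYTERE region.

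The microRNA miR164 cleaves the transcripts of CUC1, CUC2 and several other NAC genes. Of 6 such targets, 4 had a region (CUC2, NAC1, ORE1 and NAC080), where 13.5% of all genes and 25.3% of the family did, and 6 genes are too few to set the list apart. NAC1 (AT1G56010), which acts in auxin-dependent lateral root formation, had a region 812 bp away (chromosome 1, 20949900 to 20950286, rank 1265, CFR 6.89). ORE1 (AT5G39610), a driver of leaf senescence, held one inside the gene (chromosome 5, 15858584 to 15858970, rank 1719, CFR 7.03). NAC080 (AT5G07680) had one 1942 bp away (chromosome 5, 2433659 to 2434048) with rank 432 and a CFR of 4.56, but AT5G07670 is closer to it. CUC1 and NAC100 had none. The 4 targets spanned a CFR of 4.56 to 12.6, and 3 of them were ranked after 977.

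The region near NAC080 was the only one of the family that p35S:LFYTERE also held. The p35S:LFYTERE region (chromosome 5, 2433716 to 2434009) lies wholly within the p35S:LFY region, with an overlap of 294 bp. It had rank 153 of 176 and a CFR of 4.35 in that list. Sharing was thus found for 1 of 26 NAC regions (3.85%), against 8.85% of all p35S:LFY regions. CFR has the LFYTERE coverage in its denominator, and shared regions were mostly of low CFR. Of all regions with a CFR below 5, 156 of 520 were shared, and of NAC regions below 5, 1 of 6 was. At a CFR of 5 or more, 17 of 1434 (1.19%) of all regions and 0 of 20 NAC regions were shared. The authors report fewer mapped reads for the p35S:LFYTERE libraries than for those of p35S:LFY, and the part of depth in the missing calls was not tested.

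The list for the abscisic acid and drought response was limited to the ATAF and RD26 clade, so it need not hold every member with such a role. Of its 6 members, 4 had a region, beside 13.5% of all genes and 25.3% of the family. RD26 (AT4G27410), a factor induced by desiccation and abscisic acid, held the best-ranked NAC region, inside the gene (chromosome 4, 13708771 to 13709333), with rank 26 and a CFR of 9.70. At 563 bp it was among the widest of the family. Its close relatives NAC019 (AT1G52890; chromosome 1, 19699220 to 19699559) and ANAC055 (AT3G15500; chromosome 3, 5236655 to 5236898) had regions 907 and 580 bp away. Their ranks were 481 and 1177, and their CFR values 6.10 and 4.70. ATAF1 (AT1G01720), a stress-responsive founder of the family, held one inside the gene (chromosome 1, 267926 to 268306, rank 978, CFR 4.11). The 4 regions had CFR values of 4.11 to 9.70, and NAC102 and NAC032 had no region. ATAF2 is not a member by the rule because its synonym is in lower case. It had no region within 3 kb either, so with ATAF2 counted 4 of 7 genes had one. RD26, NAC019 and ANAC055 thus each had a region, with RD26 far ahead in rank.

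Several NAC proteins are made with a membrane anchor and enter the nucleus after release. Of 11 such members on the list, which need not be complete, 4 had a region, beside 13.5% of all genes and 25.3% of the family. NTL9 was also listed but is not a member by the rule, and it had no region within 3 kb. NAC014 (AT1G33060) held the second-best region of the family inside the gene, with no other gene within 3 kb (chromosome 1, 11978238 to 11978727, rank 62, CFR 13.7). NAC089 (AT5G22290), which acts in endoplasmic reticulum stress, held one inside the gene (chromosome 5, 7377394 to 7377773, rank 507, CFR 15.1). NAC13 (AT1G32870), a regulator of mitochondrial stress signalling, had one 2509 bp away (chromosome 1, 11916271 to 11916641, rank 635). Its CFR of 39.5 was the second highest of the family, but AT1G32880 is closer to that region. NAC062 (AT3G49530), also known as NTL6 and active in cold and pathogen responses, had one 107 bp from the gene (chromosome 3, 18364906 to 18365226, rank 895) with a CFR of 3.69. CFR in this group thus covered nearly the whole range of the family, from 3.69 to 39.5. The other 7, among them NTM1, NTL8 and NAC017, had no region.

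Of 7 senescence genes, 2 had a region (ORE1 and ORS1), beside 13.5% of all genes and 25.3% of the family. ORS1 (AT3G29035), the close relative of ORE1, held it inside the gene (chromosome 3, 11034463 to 11034893) with rank 399. The CFR of both regions was nearly equal, 7.15 for ORS1 and 7.03 for ORE1, while their ranks were 399 and 1719. NAP, a senescence gene first described as activated by the floral factors AP3 and PI, had its nearest region 3543 bp away (rank 1637, CFR 7.77) and so fell outside the window. Of 4 root cap genes, 1 had a region, beside the same shares. SMB (AT1G79580), which matures root cap cells, held it inside the gene (chromosome 1, 29942158 to 29942489, rank 1423, CFR 20.9). Its partners in the root cap, FEZ and the BEARSKIN genes NAC015 and NAC070, had none. NAC070 was the member farthest from any region, at 202525 bp.

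No region was within 3 kb of any of the 14 listed genes of xylem and fibre wall formation, which switch on or restrain secondary wall synthesis (VND1 to VND7, NST1 and its relatives, SND2, SND3, VNI2 and XND1). The shares were 13.5% of all genes and 25.3% of the family, and with 14 genes nothing is read from this count. The nearest regions were at 4427 bp from NAC066 (rank 309, CFR 5.36), 5200 bp from NAC073 (rank 1655, CFR 1.67) and 5877 bp from NAC083 (rank 1415, CFR 5.06). NAC073 was also the member next closest to a p35S:LFYTERE region after NAC080, at 5174 bp, followed by NAC1 at 7042 bp. Over all role lists, 15 of 48 listed members had a p35S:LFY region, beside 10 of the 51 members on no list.

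**Figure D3:**
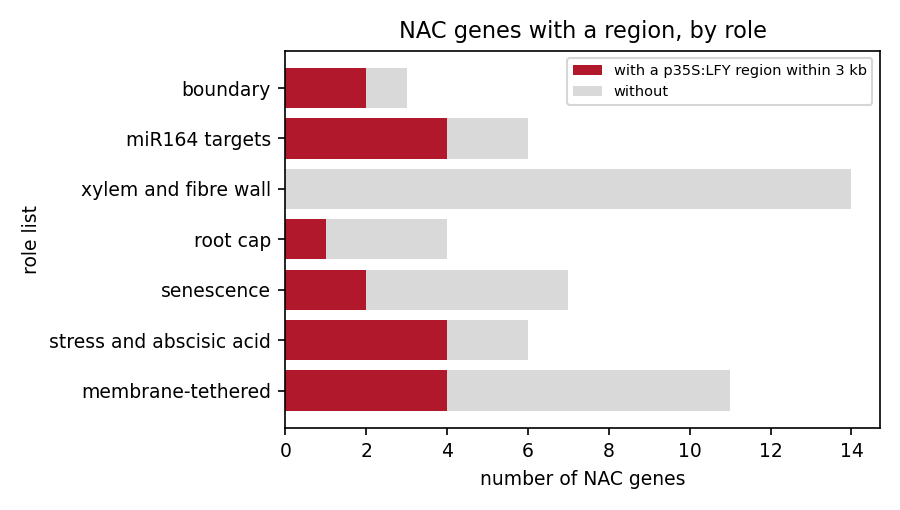
Number of NAC genes (x axis) on each of 7 role lists (y axis), split into those with a p35S:LFY region within 3 kb and those without. CUC1, CUC2 and ORE1 are each on 2 lists. Bound were 2 of 3 boundary genes, 4 of 6 miR164 targets, 0 of 14 xylem and fibre wall genes and 1 of 4 root cap genes. The senescence list had 2 of 7, the stress and abscisic acid list 4 of 6 and the membrane-tethered list 4 of 11. The share was 13.5% of all protein-coding genes and 25.3% of the family, and nothing particular to a list is read from these counts.

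The remaining 10 members with a region are on no role list. They are described because they had a region, so nothing is read from the roles they share. SOG1 is the central regulator of the plant DNA damage response, and NAC044 acts downstream of it to stop the cell cycle. SOG1 (AT1G25580) had a region 283 bp away (chromosome 1, 8996221 to 8996641, rank 757, CFR 4.11). NAC044 (AT3G01600) had 2, one 32 bp from the gene (chromosome 3, 228812 to 229275, rank 627, CFR 5.62) and one inside it (231292 to 231703, rank 1020, CFR 8.56). CDC48C and AT3G01590 are other genes within 3 kb of both. NAC085, the close relative of NAC044, had no region. The 3 regions all ranked in the middle of the list, between 627 and 1020.

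NAC045 (AT3G03200) acts with NAC086 in the removal of the nucleus from phloem sieve elements. It had 2 regions, one inside it (chromosome 3, 734803 to 735147, rank 219, CFR 29.2) and one 921 bp away (739405 to 739695, rank 525, CFR 28.7). Both CFR values were above 93.9% of the list or more, and they differed by less than those of NAC044. The first also lies inside GSTF11, which overlaps NAC045 in the annotation. NAC086 had no region. NAC057 (AT3G17730) held one inside the gene with a CFR of 25.1 (chromosome 3, 6065718 to 6066300, rank 345), at 583 bp the widest of the family.

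NAC050 and NAC052 are partners of the histone demethylase JMJ14 and neighbours on chromosome 3. Their shared region (3267025 to 3267415, rank 875, CFR 7.68) lies inside NAC050 and 605 bp from NAC052. NAC053, 14 bp from NAC052, was 3997 bp from it. Of 10 pairs of successive members with at most 6 kb between them, this was the only pair in which both had a region. In 3 other pairs 1 gene had one, and in 6 neither had. Neighbouring members thus had 1 region in common among the 26.

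The other members with a region were NAC004 (230 bp away, chromosome 1, 434536 to 434934, rank 880, CFR 7.04) and NAC095 (458 bp, chromosome 5, 16446955 to 16447308, rank 1144, CFR 6.39). NAC099 (950 bp, chromosome 5, 22922311 to 22922587, rank 1445) had the lowest CFR of the family, 2.78. No p35S:LFYTERE region was called there, and of all regions with a CFR below 5 only 156 of 520 were shared. NAC088 (chromosome 5, 6055614 to 6055951, rank 1623, CFR 11.0) was 1991 bp from a region that lies inside another gene, SIP1;2. For the regions near NAC080, NAC13, NAC095 and NAC088 a gene outside the family was closer, while in the other 22 a NAC gene was the nearest or held the midpoint. Only 8 of the 26 regions had no protein-coding gene outside the family within 3 kb, so most had such a gene nearby as well.

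**Figure D4:**
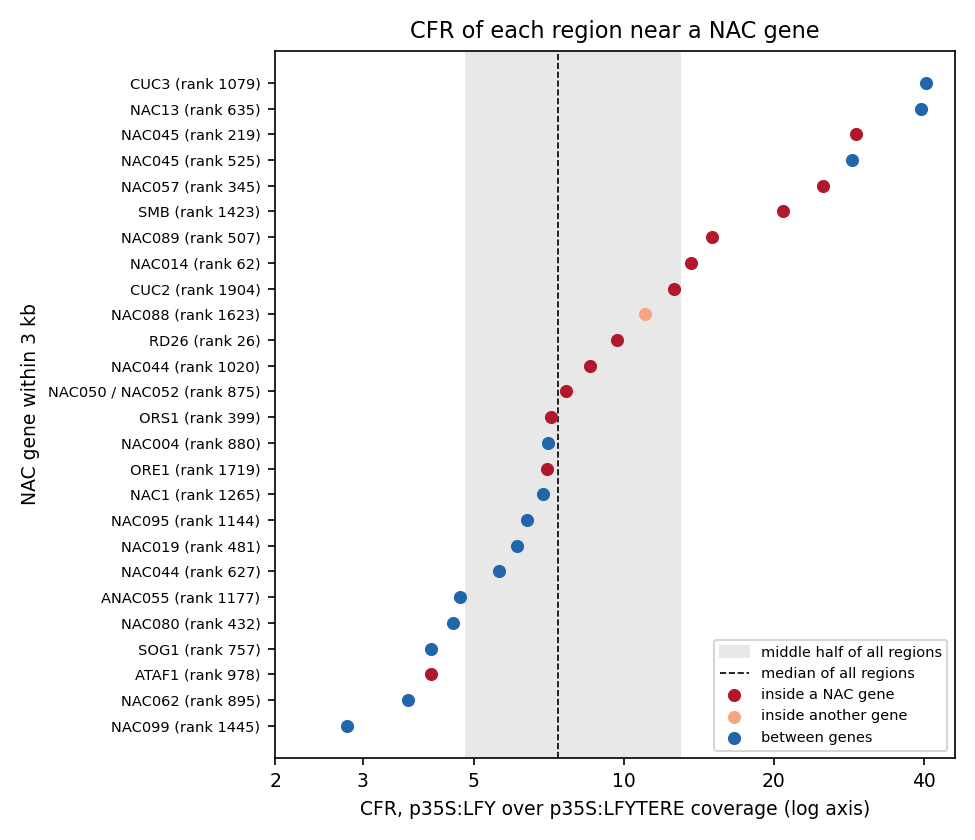
CFR (x axis, log axis, no unit) of each of the 26 p35S:LFY regions near a NAC gene, ordered by CFR and coloured by place, with the rank in brackets. Grey spans the quartiles of all 1954 regions (4.82 to 13.0) and the dashed line their median (7.40). Points run from 2.78 (NAC099) to 40.4 (CUC3), with 6 of them above a CFR of 20.

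The remaining 74 NAC genes had no region within 3 kb. Their nearest p35S:LFY midpoint was a median of 23147 bp away, 19 of them had one within 10 kb and 3 had none within 100 kb. Just outside the window were NAC005 (3125 bp) and NAP (3543 bp), and just inside it NAC13 (2509 bp) and NAC088 (1991 bp). LOV1, a gene named for the long vegetative phase it confers, was 5148 bp from a region of rank 1076. Bound members had a median length of 2151 bp and unbound members one of 1923.5 bp. By chromosome, 9 of 32 members were bound on chromosome 1, 0 of 8 on chromosome 2, 8 of 22 on chromosome 3, 1 of 10 on chromosome 4 and 7 of 27 on chromosome 5. The share of all genes bound was 12.6 to 14.1% by chromosome. With 8 to 32 members on each, nothing is read from the family's spread.

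Of 10 genes outside the family that act with the CUC genes at organ boundaries, 3 had a p35S:LFY region, beside 13.5% of all protein-coding genes. BOP1, a co-regulator of leaf and flower patterning, had 3 regions with ranks of 599, 1301 and 1787 and CFR values of 3.59, 6.40 and 25.8, and the first of these was also bound in p35S:LFYTERE. Its relative BOP2 had 1 (CFR 3.53). MYB37, an axillary meristem gene also named RAX1, had 3 with CFR values of 5.80 to 55.7. STM, LAS and the other 5 had none. The 7 regions of these genes had a median CFR of 6.40, and 1 of the 10 genes was bound in p35S:LFYTERE, beside 1.49% of all genes. From 10 genes nothing is read about the group.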

How the data were processed

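The authors used SHORE to align reads to the genome (TAIR10, per the submitters' processing notes), removed duplicates, and kept peaks that passed their false discovery threshold in all 4 comparisons of 2 replicates with 2 Col-0 controls. The deposited rank is a score without unit that orders the regions of a list. The deposited CFR is a linear ratio that the authors computed from fused replicates after scaling within and between genotypes. Every CFR share here is counted on that deposited column, and the scaling behind it was not recomputed. Totals per library are not in these lists, and no value here was computed from them.

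Genes came from a RefSeq table of assembly TAIR10.1, which gives no strand and no exons, so upstream and downstream could not be told apart. Of its coordinates none is printed. Distances run from a region's midpoint to the nearest end of the gene. As deposited, 56.3% of midpoints lay outside genes, against 35.9 to 45.5% with all midpoints moved by 1 to 10 kb. The like-length count sums, over members, the share of all genes of the same of 10 length classes with a region. Overlap of lists means 1 bp or more. All members with a region were named, and others from role lists or by their distance to the nearest region. Members and lists were chosen with earlier results of these data known. For this reason, and since a region has 1 value over all replicates, no test was made. Sequence was not used here, so the planned search for the LFY motif was not run. The distance search and the like-length count were tested on simulated data. Python 3.11.15, numpy 2.4.6, pandas 2.3.3, scipy 1.17.1 and matplotlib 3.10.9 were used.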

Additional observations from a re-analysis of the deposited data

How the results depend on the processing

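No paired analysis was possible because each region has 1 value over both replicates, and for the same reason no replicate could be left out. With the p35S:LFY list restricted to its better-ranked regions (up to rank 977), 15 NAC genes had a region, beside a like-length count of 7.5. With each region given to its nearest gene only, 20 had one, beside 6.74, and with any base of the region in place of the midpoint 26, beside 14.5. With windows of 0.5, 1, 2, 5 and 10 kb the counts were 16, 21, 24, 31 and 44, beside 6.15, 7.95, 11.0, 19.7 and 32.2. The family was thus above the like-length count under each of these settings. Restricted to genes with a matching main symbol, 21 of 84 were bound. With symbols and synonyms matched in either letter case, 25 of 100 were. The single NAC gene with a p35S:LFYTERE region became 0 with a window of 1 kb, with the better-ranked part of that list, and with the nearest gene only, where AT5G07670 is nearer than NAC080. The shared region became 0 with 1 kb. The median CFR was 7.09 to 7.68 under its alternatives, and 14 regions reached into a NAC gene with any base counted. Chosen after seeing the data were the windows of 0.5, 2, 5 and 10 kb, the classes of genes alike in length and gene-free bases, the match of synonyms in either letter case, and the like-length counts for the nearest gene, for any base and for the better-ranked regions.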
